A study of Mus musculus with 13 samples.

Results

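Laminins are large glycoproteins of the basement membrane, the sheet of matrix under epithelia and around vessels, muscle and nerve. Each is built from an α, a β and a γ chain, and the α chain largely sets which receptors bind. The laminin that holds the α3 and β3 chains anchors epithelial cells through integrin α6β4 in hemidesmosomes, whereas laminins holding the β1 or β2 and γ1 chains lie under most epithelia and around stromal cells. Microarray values of 9 laminin chain genes were compared in the rectum of mice bred for deletion of integrin α6, the α subunit of that hemidesmosome receptor, in the intestinal epithelium, and in normal rectal mucosa. The 9 genes are the α chains Lama1, Lama2, Lama3, Lama4 and Lama5, the β chains Lamb1, Lamb2 and Lamb3, and the γ chain Lamc1, out of 19938 genes measured. Each was read from 1 transcript cluster annotated to that gene alone, and no laminin had a second such cluster.

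The samples were 5 adenocarcinomas (numbers 1, 2, 3, 4 and 6, from mice of 53, 60, 60, 64 and 80 weeks), 4 pieces of inflamed rectal mucosa beside tumours (numbers 1 to 4, at 53, 60, 60 and 64 weeks) and 4 pieces of normal rectal mucosa (numbers 1, 2, 4 and 6, at 53, 60, 64 and 70 weeks). Tumour and inflamed tissue came from rectal prolapses of α6fl/fl Villin-Cre mice. The Villin promoter drives Cre in intestinal epithelium, so stromal, vascular and squamous cells of these mice keep Itga6. Normal mucosa came from animals that one label calls control, although the genotype label reads α6fl/fl Villin-Cre for all 13 samples. Females gave adenocarcinomas 1 and 6, inflamed mucosa 1 and normal mucosa 1 and 6, and males gave the other 8 samples. Prolapse tissue was dissected from cryosections whereas normal mucosa was scraped, so disease and way of collection cannot be told apart in comparisons with normal mucosa. Levels are log2 values from Affymetrix Mouse Gene 1.0 ST arrays, computed by the authors with the RMA method, and a difference of 1 means a 2-fold change. Itga6, the gene floxed in these mice, read 11.44 to 11.62 in adenocarcinomas, 10.90 to 11.20 in inflamed mucosa and 10.75 to 11.16 in normal mucosa, so its signal was not lower in prolapse tissue, and where its probes lie relative to the deletion is not stated in the labels. Correlations between arrays over all 19938 genes lay between 0.926 and 0.992, and the number of arrays limits the precision. Intestinal epithelial markers averaged 12.02 to 12.09 in adenocarcinomas, 11.83 to 12.01 in inflamed mucosa and 12.08 to 12.26 in normal mucosa, so epithelial transcripts of the labelled tissue were read on every array. In whole tissue, fewer cells of a type and less RNA per cell cannot be told apart.

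RefSeq promoter windows (GRCm38.p6, from 250 bases before to 50 after an annotated start) were examined for 5 of the 9 genes: Lama2, Lama5, Lamb1, Lamb2 and Lamb3. Lama3 was left out of this search, so the count of 5 does not say whether it has an annotated window. Those of Lamb1, Lama5 and Lamb3 are shown because these chains had different patterns over the 3 groups, described below. Capitals mark GC boxes, the letters GGGCGG or their reverse complement CCGCCC, found on either strand.
Lamb1, chr12:31265043-31265342, plus strand: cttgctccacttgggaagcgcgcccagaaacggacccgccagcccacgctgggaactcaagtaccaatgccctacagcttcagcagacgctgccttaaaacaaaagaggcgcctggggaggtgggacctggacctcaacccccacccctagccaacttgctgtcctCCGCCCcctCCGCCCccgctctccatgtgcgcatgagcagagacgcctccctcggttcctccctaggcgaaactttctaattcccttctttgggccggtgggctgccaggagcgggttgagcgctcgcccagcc
Lama5, chr2:180225810-180226109, minus strand: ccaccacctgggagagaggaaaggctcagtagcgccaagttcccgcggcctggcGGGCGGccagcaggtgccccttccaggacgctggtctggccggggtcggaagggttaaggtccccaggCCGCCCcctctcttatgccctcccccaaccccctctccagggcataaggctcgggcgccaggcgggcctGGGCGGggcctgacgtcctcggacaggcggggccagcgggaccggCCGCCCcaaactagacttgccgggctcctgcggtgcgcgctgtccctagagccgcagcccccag
Lamb3, chr1:193301744-193302043, plus strand: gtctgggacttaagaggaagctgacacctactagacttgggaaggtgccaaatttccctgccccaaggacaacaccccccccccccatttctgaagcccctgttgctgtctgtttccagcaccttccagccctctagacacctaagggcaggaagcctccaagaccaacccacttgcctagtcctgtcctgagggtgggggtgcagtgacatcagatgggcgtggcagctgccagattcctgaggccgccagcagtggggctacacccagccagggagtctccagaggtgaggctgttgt
The Lama5 window held 4 GC boxes and had 72.7% G and C bases, the Lamb1 window held 2 at 63.7%, and the Lamb3 window held 0 at 59.3%. Over all 32851 windows of this length, 35.7% held a GC box and the median share of G and C was 52.7%. The Lama2 window held 1 GC box, the Lamb2 window 0, and a second Lamb3 window that overlaps the one shown also 0. The AP-1 site (TGANTCA), the TATA box (TATAAA) and the cyclic AMP response element (TGACGTCA), searched on both strands, were in 0 of the 5 genes' windows, against 7.81%, 13.6% and 1.79% of all windows. A match is a description of the letters and says nothing of binding.

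Set against normal mucosa, adenocarcinomas had higher levels of 7 of the 9 laminin chains, and 0 of the 9 were lower (limma, Benjamini-Hochberg adjusted p below 0.05 over all 19938 genes). Over all genes 35.8% were called in this comparison, 16.4% higher and 19.4% lower. The arrays of the groups did not overlap for 7 chains, against 13% of all genes that were higher on every tumour array. The median difference was 1.70 over the laminins and -0.10 over all genes. The largest differences were those of Lamc1, Lamb1 and Lama4, and the chains that did not pass were Lama3 and Lamb3, the epithelial anchoring pair. Inflamed mucosa had 6 of the 9 chains higher than normal mucosa and 0 lower, where 26.7% of all genes were called, 13.7% higher and 13% lower. Groups did not overlap for 7 chains, against 12.0% of all genes with every inflamed array higher. The median difference there was 1.19 over the laminins and -0.09 over all genes. Both comparisons use the same 4 normal arrays. In the main fit, which did not pair arrays, 3 chains differed between adenocarcinoma and inflamed mucosa: Lama1, Lama5 and Lamb3. All were higher in tumours. In that comparison 7.12% of all genes were called, 2.91% higher and 4.21% lower. Every tumour array lay above every inflamed array for 4 chains, these 3 and Lama3, against 5.27% of all genes. That median was 0.44 over the laminins and -0.01 over all genes.

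**Figure D1:**
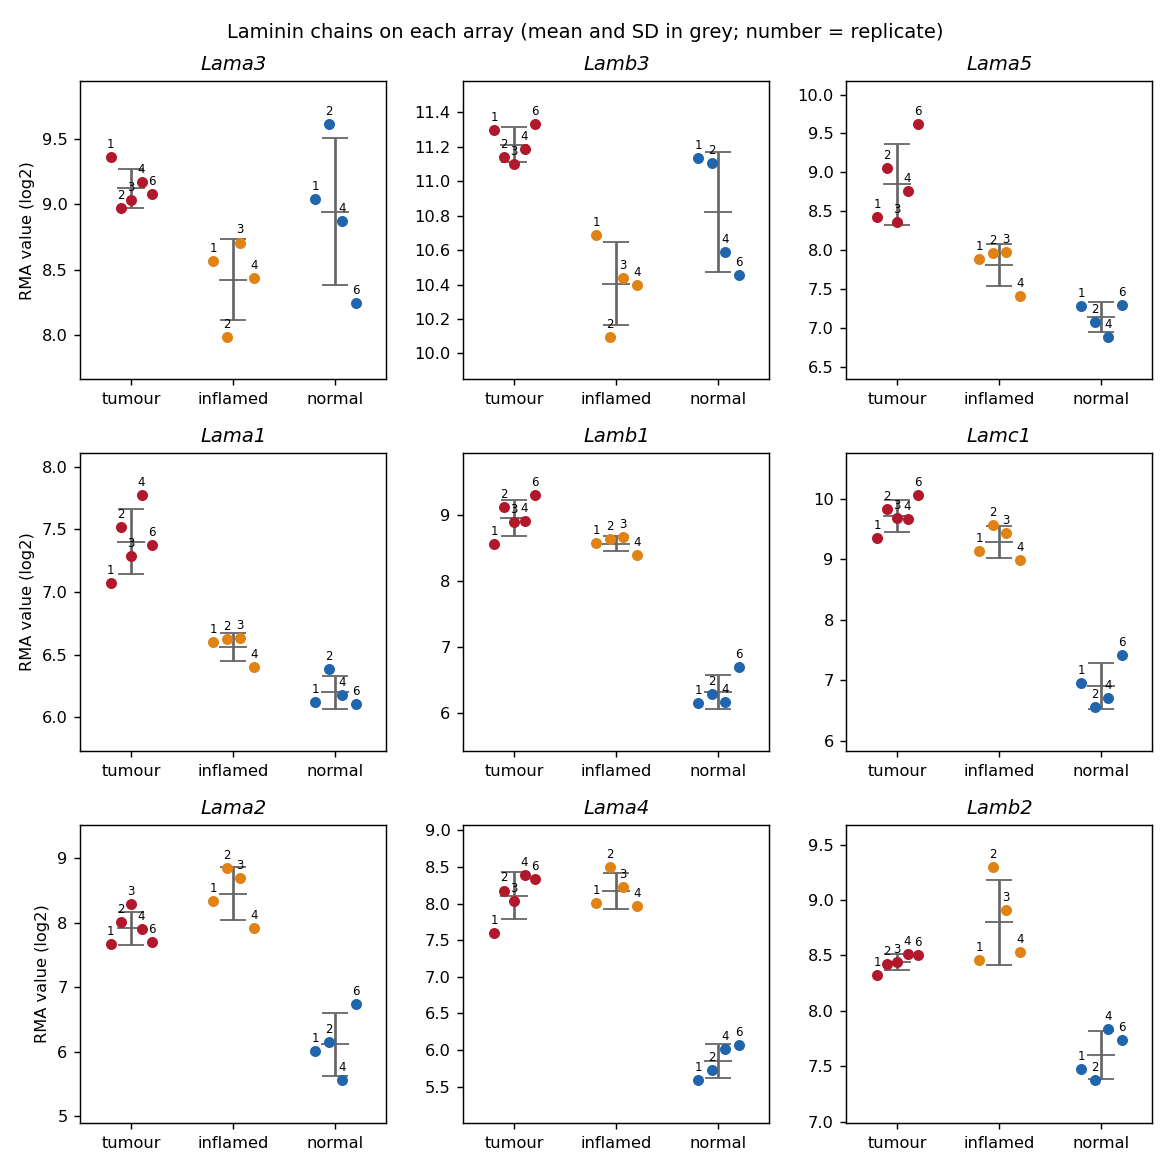
Levels of the 9 laminin chains on each of the 13 arrays, as log2 RMA values, with 1 panel per gene and its own vertical scale. Points are arrays labelled by replicate number, from left to right adenocarcinoma, inflamed mucosa and normal mucosa, and grey bars give the mean and SD of each group. Lamb1, Lamc1, Lama2, Lama4 and Lamb2 separate prolapse tissue from normal mucosa without overlap, Lama1 and Lama5 are highest in tumours, and Lama3 and Lamb3 are lowest on average in inflamed mucosa.

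Lamc1 encodes the γ1 chain shared by most laminins of stroma and epithelium. It read 9.35, 9.84, 9.69, 9.66 and 10.06 in adenocarcinomas 1, 2, 3, 4 and 6, then 9.14, 9.58, 9.43 and 8.99 in inflamed mucosa 1 to 4, and 6.95, 6.55, 6.71 and 7.42 in normal mucosa 1, 2, 4 and 6. All 9 prolapse arrays lay above all 4 normal arrays, and tumour and inflamed arrays overlapped. Lamc1 was 7.02-fold higher in adenocarcinoma than in normal mucosa (log2 difference 2.81, SE 0.18, limma adjusted p = 1.54e-07) and 5.19-fold higher in inflamed than in normal mucosa (2.38, SE 0.19, limma adjusted p = 2.35e-06). Tumour and inflamed mucosa differed by 0.44 (95% interval 0.04 to 0.83), which did not pass (limma adjusted p = 0.196).

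Lamb1, the β1 chain that joins γ1, had a like pattern. Its levels were 8.56, 9.12, 8.90, 8.90 and 9.29 in adenocarcinomas 1, 2, 3, 4 and 6, against 8.57, 8.63, 8.66 and 8.40 in inflamed mucosa 1 to 4 and 6.15, 6.29, 6.17 and 6.70 in normal mucosa 1, 2, 4 and 6. The lowest prolapse array stood well above the highest normal array, and adenocarcinoma 1 lay within the inflamed range. The rise over normal mucosa was 6.17-fold in adenocarcinoma (2.63, SE 0.15, limma adjusted p = 3.95e-08) and 4.71-fold in inflamed mucosa (2.24, SE 0.15, limma adjusted p = 9.34e-07). The tumour minus inflamed difference of 0.39 (95% interval 0.08 to 0.70) did not pass (limma adjusted p = 0.14). Among all genes measured other than predicted ones, Lamc1 had the centred profile closest to that of Lamb1 over the 13 arrays, and Lamb1 the closest to that of Lamc1, with a root mean square difference of 0.16 on the log2 scale. The next closest to Lamb1 were Col1a2, a fibrillar collagen chain, at 0.22 and the adhesion receptor Adgrf5 at 0.23, and next to Lamc1 came Heg1, an endothelial membrane protein, at 0.23.

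Lama4 encodes the α4 chain of endothelial and mesenchymal laminins, and Lama2 the α2 chain best known from muscle basement membranes. Lama4 read 7.60, 8.18, 8.04, 8.40 and 8.34 in adenocarcinomas 1, 2, 3, 4 and 6, against 8.00, 8.50, 8.23 and 7.97 in inflamed mucosa 1 to 4 and 5.59, 5.73, 6.01 and 6.07 in normal mucosa 1, 2, 4 and 6. Its prolapse arrays all stood above the normal arrays and overlapped one another. In normal mucosa 1 its level was close to 5.57, so it may be near the floor of the array. That value is the highest of 23 readings of 4 transcripts on arrays of the sex that lacks them. Lama4 was 4.79-fold higher in adenocarcinoma (2.26, SE 0.17, limma adjusted p = 4.37e-07) and 5.01-fold higher in inflamed mucosa (2.32, SE 0.18, limma adjusted p = 1.66e-06) than in normal mucosa. Its tumour minus inflamed difference was -0.06, with a 95% interval of -0.42 to 0.29 (limma adjusted p = 0.918), and was 0.06 without adenocarcinoma 1 and 0.04 without inflamed mucosa 2.

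Lama2 levels ran highest in inflamed mucosa. The chain read 7.66, 8.02, 8.28, 7.90 and 7.70 in adenocarcinomas 1, 2, 3, 4 and 6, against 8.34, 8.84, 8.70 and 7.92 in inflamed mucosa 1 to 4 and 6.02, 6.16, 5.56 and 6.74 in normal mucosa 1, 2, 4 and 6. The value of normal mucosa 4 was no higher than 5.57, the highest of 23 readings of 4 transcripts on arrays of the sex that lacks them, so the level there may be at the floor of the array. The increase over normal mucosa was 3.47-fold in adenocarcinoma (1.80, SE 0.23, limma adjusted p = 5.06e-05) and 5.03-fold in inflamed mucosa (2.33, SE 0.24, limma adjusted p = 1.41e-05). Tumour minus inflamed mucosa was -0.54 (95% interval -1.02 to -0.05) and did not pass (limma adjusted p = 0.202). Closest in profile to Lama2 was Ltbp4, a matrix protein that binds latent TGF-β, at 0.23, and closest to Lama4 was Adgrf5 at 0.19.

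Lamb2 encodes the β2 chain, known from vessel walls, kidney filters and the neuromuscular junction. It was 8.32, 8.42, 8.44, 8.51 and 8.50 in adenocarcinomas 1, 2, 3, 4 and 6, against 8.46, 9.30, 8.91 and 8.54 in inflamed mucosa 1 to 4 and 7.47, 7.37, 7.83 and 7.74 in normal mucosa 1, 2, 4 and 6. Tumours were close together (SD 0.08, n = 5), inflamed pieces were spread (SD 0.39, n = 4), and both lay above every normal array. Lamb2 was 1.78-fold higher in adenocarcinoma (0.83, SE 0.15, limma adjusted p = 0.000929) and 2.29-fold higher in inflamed mucosa (1.19, SE 0.16, limma adjusted p = 0.000141) than in normal mucosa. The tumour minus inflamed difference of -0.36 (95% interval -0.69 to -0.03) did not pass (limma adjusted p = 0.205). Closest in profile to Lamb2 were Tshz2 at 0.12, Rab12 at 0.15 and Acer2 at 0.15.

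Several lists of stromal and immune markers were higher together with these 5 chains. All 9 endothelial and all 8 fibroblast markers were called higher in both adenocarcinoma and inflamed mucosa than in normal mucosa, where 16.4% and 13.7% of all genes were. Of 6 pericyte markers 6 were called higher in adenocarcinoma and 5 in inflamed mucosa, and so were 6 and 5 of 6 macrophage markers, whose mean level was 8.37 to 9.16 in adenocarcinomas, 8.86 to 9.30 in inflamed mucosa and 6.82 to 7.92 in normal mucosa. Markers of enteric glia and Schwann cells did not share this, with 0 of 5 higher in either tissue, 3 lower in adenocarcinoma and 1 lower in inflamed mucosa. Mean endothelial marker levels lay between 8.43 and 8.80 in adenocarcinomas, between 8.07 and 8.65 in inflamed mucosa and between 5.87 and 6.57 in normal mucosa. Fibroblast markers lay at 9.46 to 9.93 in adenocarcinomas, 9.42 to 9.95 in inflamed mucosa and 6.82 to 8.06 in normal mucosa. Smooth muscle markers set the prolapse tissues apart, at 8.47 to 8.78 in adenocarcinomas, 10.20 to 11.24 in inflamed mucosa and 6.34 to 7.94 in normal mucosa. In tumours 8 of the 9 were called lower than in inflamed mucosa, against 4.21% of all genes. Lama2 and Lamb2 had higher means in inflamed mucosa than in adenocarcinoma, though neither difference passed. The part of these cell types in the laminin levels was not tested.

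**Figure D2:**
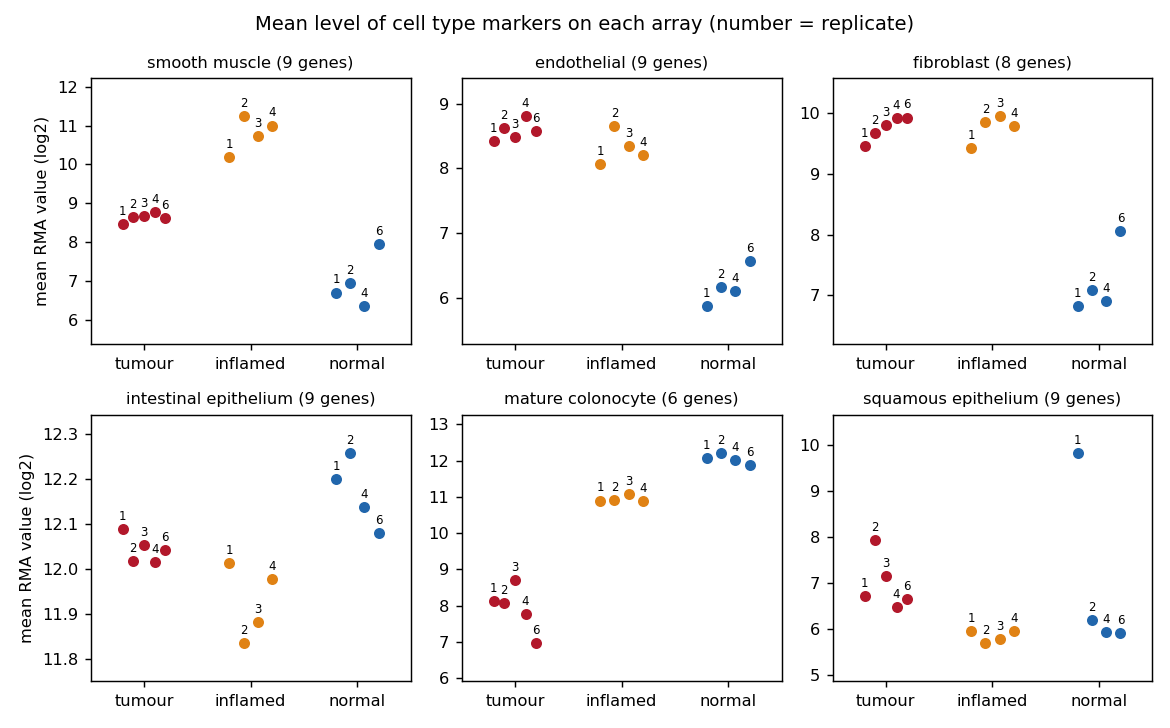
Mean log2 RMA level of 6 cell type marker lists on each array, with 1 panel per list. Points are arrays labelled by replicate number, from left to right adenocarcinoma, inflamed mucosa and normal mucosa. Endothelial and fibroblast markers are high in both prolapse tissues, smooth muscle markers are highest in inflamed mucosa at 10.20 to 11.24, and normal mucosa 1 stands apart in squamous markers at 9.83.

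Lama5 and Lama1 were the α chains called higher in tumours than in the mucosa beside them. Lama3 passed in 5 of 27 alternatives. Lama5 encodes α5, the most widespread α chain of adult epithelial and endothelial basement membranes. It read 8.43, 9.05, 8.36, 8.76 and 9.63 in adenocarcinomas 1, 2, 3, 4 and 6, against 7.88, 7.96, 7.98 and 7.41 in inflamed mucosa 1 to 4 and 7.29, 7.09, 6.89 and 7.30 in normal mucosa 1, 2, 4 and 6. The 3 groups did not overlap, with tumours highest and normal mucosa lowest, and adenocarcinoma 6, from the oldest mouse, was the highest array. Lama5 was 2.05-fold higher in adenocarcinoma than in inflamed mucosa (1.04, SE 0.22, limma adjusted p = 0.012) and 3.26-fold higher than in normal mucosa (1.70, SE 0.22, limma adjusted p = 6.57e-05). Inflamed mucosa was 1.59-fold above normal mucosa (0.67, SE 0.23), at the edge of the threshold (limma adjusted p = 0.0494). That last call was lost in 14 of 26 alternatives, with an adjusted p of up to 0.119 when inflamed mucosa 2 was left out. The closest profiles to Lama5 were those of Sec61b, a subunit of the protein channel of the endoplasmic reticulum, and Col4a1, a chain of basement membrane collagen IV, at a root mean square difference of 0.28 each.

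Lama1 encodes α1, a chain of the embryo's first basement membranes that few adult tissues keep. Its levels were 7.07, 7.52, 7.28, 7.77 and 7.38 in adenocarcinomas 1, 2, 3, 4 and 6, against 6.60, 6.62, 6.63 and 6.40 in inflamed mucosa 1 to 4 and 6.12, 6.39, 6.18 and 6.11 in normal mucosa 1, 2, 4 and 6. Each tumour lay above each inflamed piece, and each inflamed piece lay above each normal one, the closest arrays being inflamed mucosa 4 and normal mucosa 2. Lama1 was 1.79-fold higher in adenocarcinoma than in inflamed mucosa (0.84, SE 0.12, limma adjusted p = 0.00122) and 2.30-fold higher than in normal mucosa (1.20, SE 0.12, limma adjusted p = 8.1e-06). Inflamed mucosa exceeded normal mucosa by 0.36 (SE 0.13), which just missed the threshold (limma adjusted p = 0.0525) but passed in 7 of 26 alternatives, among them a random replicate block (limma adjusted p = 0.0496). The nearest profile was that of Cgnl1, a protein of epithelial cell junctions, at 0.17. Next came Chil3 and the matricellular protein Ccn4, each at 0.19. Mature colonocyte markers were lowest in tumours, at 6.98 to 8.72 in adenocarcinomas, 10.89 to 11.08 in inflamed mucosa and 11.88 to 12.21 in normal mucosa. In adenocarcinoma 5 of the 6 were called lower than in inflamed mucosa, against 4.21% of all genes. The part of this loss in the levels of Lama5 and Lama1 was not tested.

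Lamb3 and Lama3 encode the β3 and α3 chains of the laminin that hemidesmosomes hold. Lamb3 read 11.30, 11.14, 11.10, 11.19 and 11.34 in adenocarcinomas 1, 2, 3, 4 and 6, against 10.69, 10.10, 10.44 and 10.40 in inflamed mucosa 1 to 4 and 11.14, 11.11, 10.59 and 10.46 in normal mucosa 1, 2, 4 and 6. Tumours lay above all inflamed arrays, and normal mucosa spanned both ranges, with normal mucosa 1 and 2 near the tumours and 4 and 6 near the inflamed pieces. Lamb3 was 1.75-fold higher in adenocarcinoma than in inflamed mucosa (0.81, SE 0.15, limma adjusted p = 0.00527). Against normal mucosa it differed by 0.39 in adenocarcinoma (SE 0.15, limma adjusted p = 0.0571) and by -0.42 in inflamed mucosa (SE 0.16, limma adjusted p = 0.0653), neither of which passed. The first passed in 7 of 26 alternatives, with adjusted p-values down to 0.0252 in limma without normal mucosa 1, and the second in 4 of 26. The closest profiles were those of Txnrd1, a thioredoxin reductase, at 0.14 and of Anxa2, a membrane-binding annexin, at 0.15.

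Lama3 read 9.36, 8.97, 9.03, 9.17 and 9.08 in adenocarcinomas 1, 2, 3, 4 and 6, against 8.57, 7.99, 8.71 and 8.44 in inflamed mucosa 1 to 4 and 9.04, 9.62, 8.87 and 8.25 in normal mucosa 1, 2, 4 and 6. Again tumours lay above all inflamed arrays, and normal mucosa had the widest spread (SD 0.56, n = 4). The tumour minus inflamed difference was 0.70 (95% interval 0.23 to 1.16) and missed the threshold (limma adjusted p = 0.073). With the 4 tumours and 4 inflamed pieces of the same number fitted as pairs it was 0.71 and passed (limma adjusted p = 0.0105). Adenocarcinoma differed from normal mucosa by 0.18 (SE 0.22, limma adjusted p = 0.528) and inflamed from normal mucosa by -0.52 (SE 0.23, limma adjusted p = 0.103).

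The normal values of both chains depended on which array was included. Without normal mucosa 6, which had the highest smooth muscle and fibroblast marker levels of its group at 7.94 and 8.06, the inflamed minus normal differences were -0.75 for Lama3 (limma adjusted p = 0.0117) and -0.54 for Lamb3 (limma adjusted p = 0.02), and that of adenocarcinoma for Lama3 was -0.06. Markers of squamous epithelium, which lines the anus and also makes Lama3 and Lamb3, were uneven over the arrays. Their mean level was 6.48 to 7.95 in adenocarcinomas, 5.71 to 5.97 in inflamed mucosa and 5.92 to 9.83 in normal mucosa, where normal mucosa 1 gave the top value. The keratin Krt5 stood at 11.17 and 10.70 in adenocarcinomas 2 and 3 and at 12.10 in normal mucosa 1, and at 5.98 to 7.38 on the other 10 arrays. In tumours the list did not move as one. Krt14, Krt13 and Dsg3 lay above every inflamed array in all 5 adenocarcinomas, Krt14 at 8.47 to 10.63 against 6.42 to 6.98 in inflamed mucosa, though only Dsg3 was called higher (2.89, limma adjusted p = 0.0398). Of the 9 squamous markers, 3 were higher in tumours without overlap and 1 was called higher, against 5.27% and 2.91% of all genes. Krt13 was separated narrowly, at 7.85 in adenocarcinoma 3 against 7.79 in inflamed mucosa 4. Krt1, Krt4, Krt5, Krt10, Trp63 and Ivl overlapped between tumours and inflamed mucosa. Without the 3 arrays highest in Krt5, an alternative chosen after the values were seen, the adenocarcinoma minus normal difference of Lamb3 was 0.56 and passed (limma adjusted p = 0.0469), and its adenocarcinoma minus inflamed difference was 0.87 and also passed (limma adjusted p = 0.0129). The part of squamous cells in the levels of either chain was not tested.

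**Figure D3:**
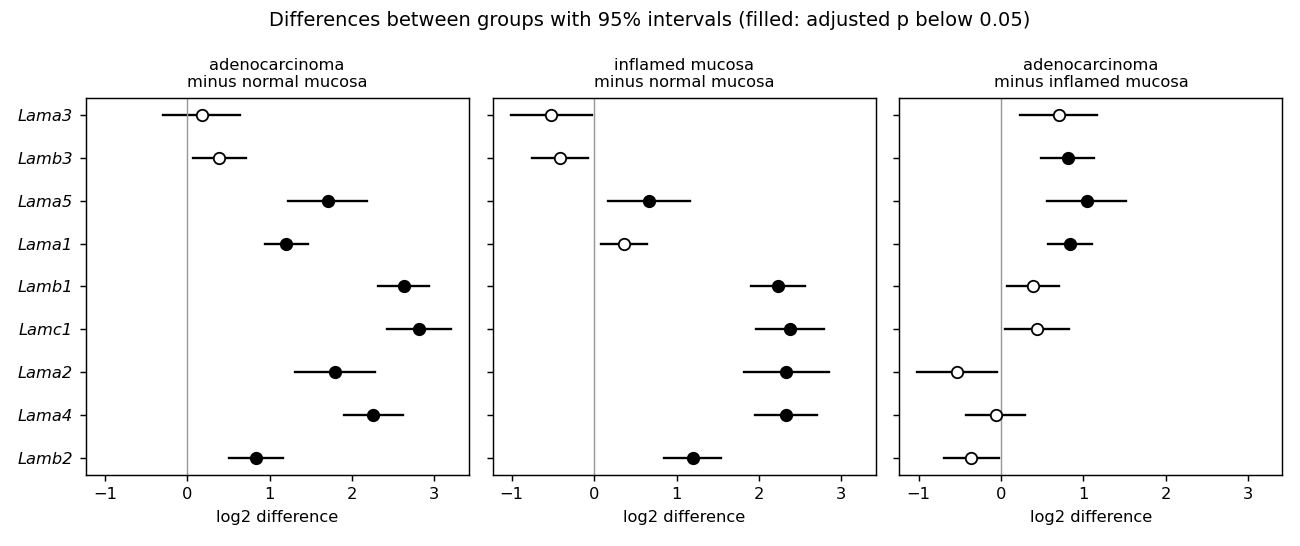
Log2 differences of the 9 laminin chains with 95% intervals for adenocarcinoma minus normal mucosa, inflamed minus normal mucosa and adenocarcinoma minus inflamed mucosa. Filled points passed an adjusted p of 0.05 in limma over all genes, and open points did not. The chains from Lamb1 down to Lamb2 lie to the right of 0 in both comparisons with normal mucosa, while Lamb3, Lama5 and Lama1 are the filled points between tumour and inflamed mucosa.

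Within groups the chains did not all peak on the same array. Inflamed mucosa 2 was highest of its group in Lama2, Lama4, Lamb2 and Lamc1 and lowest in Lama3 and Lamb3. The same array had the highest smooth muscle marker level, 11.24, and the lowest intestinal epithelial marker level, 11.83, of the inflamed pieces. Inflamed mucosa 4 was lowest in 6 chains. Adenocarcinoma 1 was lowest of the tumours in 6 chains and highest in Lama3, whereas adenocarcinoma 6 was highest in Lama5, Lamb1, Lamb3 and Lamc1. Normal mucosa 6 was highest of its group in 5 chains (Lama2, Lama4, Lama5, Lamb1 and Lamc1) and lowest in Lama1, Lama3 and Lamb3.

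Lamc3, the γ3 chain, was the other γ chain measured. It read 7.35, 6.85, 6.98, 7.07 and 7.06 in adenocarcinomas 1, 2, 3, 4 and 6, against 7.06, 7.03, 7.22 and 7.07 in inflamed mucosa 1 to 4 and 7.34, 7.57, 7.13 and 7.47 in normal mucosa 1, 2, 4 and 6. The ranges overlapped. It was called lower in adenocarcinoma than in normal mucosa (-0.32, SE 0.11, limma adjusted p = 0.0392), a call lost with a fixed replicate block (limma adjusted p = 0.0733).

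Laminin receptors connect these chains to cells. Of 12 receptor genes, 7 were called higher and 0 lower in adenocarcinoma than in normal mucosa, 5 higher and 2 lower in inflamed than in normal mucosa, and 5 higher and 0 lower in adenocarcinoma than in inflamed mucosa. The shares of all genes were 16.4% higher and 19.4% lower, 13.7% and 13%, and 2.91% and 4.21% in these comparisons, so the 2 lower in inflamed mucosa are near the share of all genes. Itgb1, the β subunit of most laminin-binding integrins, was higher than in normal mucosa by 1.00 in adenocarcinoma (limma adjusted p = 6.81e-06) and 0.87 in inflamed mucosa (limma adjusted p = 6.44e-05). Itga2, whose integrin binds collagens and laminins, was 6.36-fold higher in adenocarcinoma (2.67, limma adjusted p = 1.7e-07) and 2.25-fold higher in inflamed mucosa (1.17, limma adjusted p = 0.000489) than in normal mucosa.

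Itgb4 and Itga6 encode the β4 and α6 subunits of the hemidesmosome receptor. Itgb4 read 11.70, 11.75, 11.73, 11.55 and 11.79 in adenocarcinomas 1, 2, 3, 4 and 6, against 11.13, 11.02, 11.35 and 10.96 in inflamed mucosa 1 to 4 and 11.18, 11.51, 11.03 and 11.36 in normal mucosa 1, 2, 4 and 6. It was higher in adenocarcinoma than in inflamed mucosa by 0.59 (limma adjusted p = 0.00508) and than in normal mucosa by 0.43 (limma adjusted p = 0.00762), and the call against normal mucosa was lost without the 3 arrays highest in Krt5 (0.38, limma adjusted p = 0.0895). Itga6 was called higher in adenocarcinoma than in normal mucosa by 0.63 (limma adjusted p = 0.000272), while inflamed minus normal mucosa was 0.18 and did not pass (limma adjusted p = 0.195). Itga3, whose integrin with β1 binds the α3 and α5 chains, was lower in inflamed than in normal mucosa (-0.49, limma adjusted p = 0.00584) and higher in adenocarcinoma than in inflamed mucosa (0.65, limma adjusted p = 0.00211). Neither Dag1 (dystroglycan, a receptor of α1 and α2 chains) in any comparison nor Bcam (a receptor of α5) between adenocarcinoma and the other tissues passed, while Bcam was called higher in inflamed than in normal mucosa (0.69, limma adjusted p = 0.00969).

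Nidogens, proteoglycans and collagens join laminins in the basement membrane, and some of these partners were higher and some lower. Of 12, 7 were called higher and 3 lower in adenocarcinoma than in normal mucosa, 7 higher and 3 lower in inflamed than in normal mucosa, and 4 higher and 0 lower in adenocarcinoma than in inflamed mucosa. The 3 called lower in adenocarcinoma are near the 19.4% of all genes called lower there. In inflamed against normal mucosa 13% of all genes were called lower, and in adenocarcinoma against inflamed mucosa 4.21%. The shares of all genes called higher in the 3 comparisons were 16.4%, 13.7% and 2.91%. Nid1, the nidogen that binds the γ1 chain, read 9.88, 10.05, 10.20, 10.13 and 10.09 in adenocarcinomas 1, 2, 3, 4 and 6, against 9.57, 10.31, 10.49 and 9.84 in inflamed mucosa 1 to 4 and 5.99, 6.84, 6.19 and 7.51 in normal mucosa 1, 2, 4 and 6. Prolapse and normal arrays did not overlap, and Nid1 was 10.9-fold higher in adenocarcinoma (limma adjusted p = 6.08e-07) and 10.7-fold higher in inflamed mucosa (limma adjusted p = 2.4e-06) than in normal mucosa. Hspg2, the heparan sulfate proteoglycan perlecan, was higher by 2.08 in adenocarcinoma and 1.84 in inflamed mucosa (limma adjusted p = 7.48e-07 and 6.69e-06).

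Among the collagens, Col4a1 and Col4a2, the chains found in nearly all basement membranes, were higher in adenocarcinoma than in normal mucosa by 1.91 and 2.01 and than in inflamed mucosa by 0.80 and 0.81 (limma adjusted p at most 0.00569 in all 4). Col18a1, a collagen of epithelial and vascular basement membranes, was higher by 1.91 over normal (limma adjusted p = 1.14e-07) and by 1.02 over inflamed mucosa (limma adjusted p = 0.00021). Agrn, agrin, was called lower in adenocarcinoma (-0.54, limma adjusted p = 0.0165) and in inflamed mucosa (-0.77, limma adjusted p = 0.00443) than in normal mucosa. Of 5 netrins, secreted relatives of laminins, 1 was called higher and 1 lower in adenocarcinoma than in normal mucosa and 1 higher in inflamed than in normal mucosa, Ntn1 being the one called higher in inflamed mucosa (0.97, limma adjusted p = 0.000149). These counts are near the shares of all genes, 16.4% higher and 19.4% lower in adenocarcinoma and 13.7% higher in inflamed mucosa.

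Proteases known to cleave laminin chains were mostly higher. Of 11, 9 were called higher and 0 lower in adenocarcinoma than in normal mucosa, 7 higher and 0 lower in inflamed than in normal mucosa, and 6 higher and 0 lower in adenocarcinoma than in inflamed mucosa, where 16.4%, 13.7% and 2.91% of all genes were called higher. Mmp2 and Mmp14, matrix metalloproteinases, were higher in adenocarcinoma than in normal mucosa by 4.28 and 2.18 and in inflamed than in normal mucosa by 3.60 and 1.35 (limma adjusted p at most 2.45e-05 in all 4). Mmp3, stromelysin, was 8.23-fold higher in adenocarcinoma than in inflamed mucosa (3.04, limma adjusted p = 9.3e-06). Bmp1, which trims laminin chains outside the cell, was higher by 1.75 in adenocarcinoma and 1.10 in inflamed mucosa than in normal mucosa (limma adjusted p = 8.87e-06 and 0.00102).

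**Figure D4:**
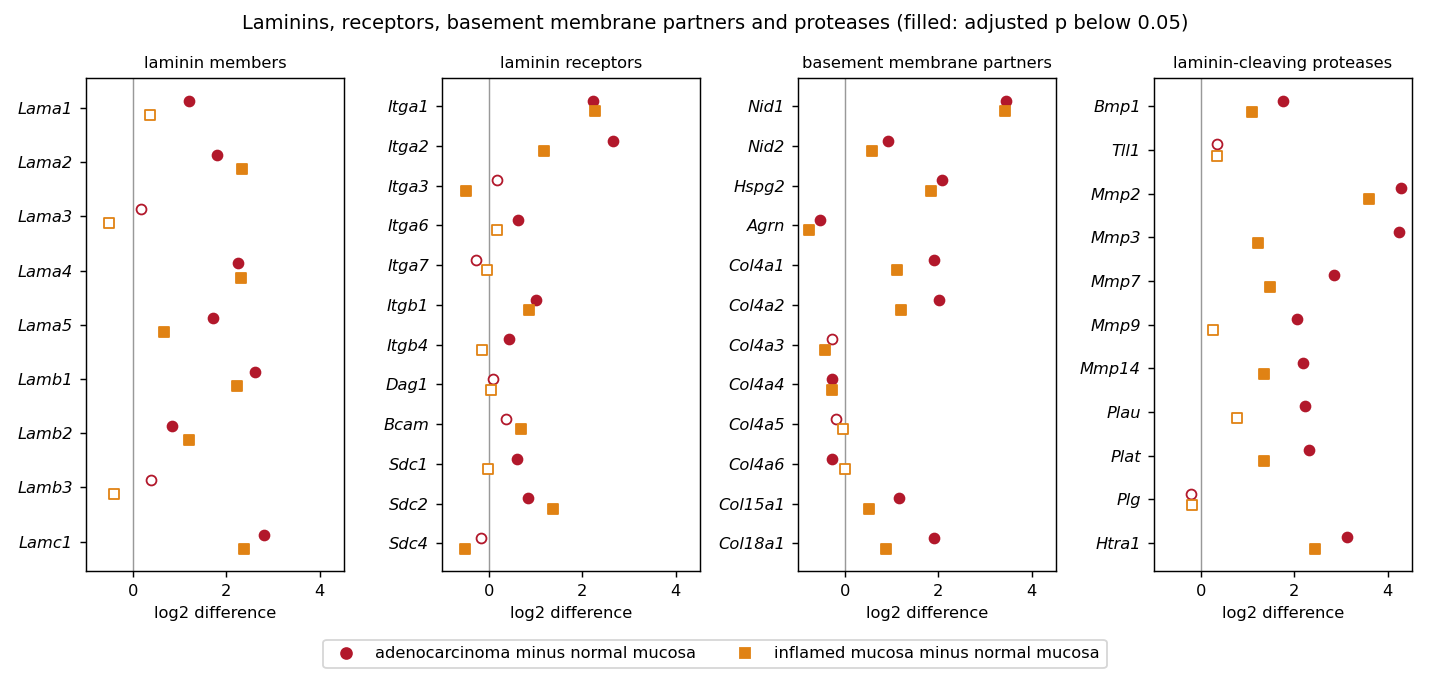
Log2 differences from normal mucosa of the 9 laminin chains, 12 receptors, 12 basement membrane partners and 11 laminin-cleaving proteases, in 1 panel per list. Circles are adenocarcinoma minus normal mucosa and squares inflamed minus normal mucosa, filled where limma's adjusted p was below 0.05. Nid1, Mmp2, Mmp3 and Htra1 lie furthest right in tumours, and Agrn lies left of 0 in both tissues.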

How the data were processed

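RNA of 13 pieces of mouse rectum was measured on Affymetrix Mouse Gene 1.0 ST arrays. The deposited log2 values are RMA values per transcript cluster that the authors made in Expression Console 1.1, after image processing in GeneChip Command Console 2.0, per the series' design text. The submitters' processing notes also name Partek, with no role. RMA brings arrays to a common distribution, which removes differences in total RNA and compresses those of dim genes.

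Of 35556 clusters, 21789 name 1 gene in the platform annotation. Where a gene had several, the brightest on average was used, which left 19938 genes, with symbols updated through RefSeq (GRCm38.p6). No cluster coordinates are printed, because the sources used here do not name the array's build. The test was limma 3.58.1 (R 4.3.3) in 1 fit of 3 groups, with Benjamini-Hochberg adjustment over all 19938 genes and a threshold of 0.05, checked on simulated data. No filter on dim genes was applied. Groups came from the tissue labels and replicate numbers from the titles.

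The labels do not tie arrays of 1 number to 1 mouse. Tumour and inflamed arrays of 1 number share sex and age, and so do normal arrays 1, 2 and 4 with theirs. For numbers 1 to 4, tumour and inflamed deviations from their group means had correlations of 0.319, 0.198, 0.199 and 0.387. Between tumour and inflamed arrays of different number the highest was 0.185 (adenocarcinoma 6 with inflamed mucosa 1). Adenocarcinoma 1 with normal mucosa 2 reached 0.283, so 0.198 and 0.199 alone do not mark a pair. Fitting numbers 1 to 4 of tumour and inflamed tissue as pairs is thus an assumption. Normal arrays, at -0.126 to 0.0413 with others of their number, were not paired. Where samples of a group do not come from separate animals, p-values measure only the spread between samples.

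The laminins and the lists were chosen with earlier results of these data known. The genes described in the text were drawn from the 9 laminins, the called members of 5 pathway lists and 8 of those genes whether or not they passed. For each laminin called in a comparison they were also drawn from the nearest 3 profiles, predicted genes left out. Krt1, Krt4, Krt5, Krt10, Krt13, Krt14, Trp63 and Ivl were chosen after their values were seen.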

Additional observations from a re-analysis of the deposited data

Results flagged for a closer look

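In inflamed mucosa, the array of replicate 4 stood apart from its group in 2 chains. Its Lama1 level was 6.40, against 6.60 to 6.63 on the other 3 arrays, a gap of 0.867 of the group's range. Its Lama5 level was 7.41, against 7.88 to 7.98, a gap of 0.838. Both exceed Dixon's 95% critical value for 4 samples. Of the 27 groups of a laminin tested, 2 were picked out in this way, and chance picks out about 1 in 20. The same array was lowest of its group in 6 of the 9 chains.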

How the results depend on the processing

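Alternatives tried were a fixed or random block of replicate number, the 2 groups alone, cyclic loess, centring on array medians, a filter on the dimmest genes, all clusters, sex or age as a covariate, another variance model, array weights and leaving out each array. Of the laminin calls made, the only one that any of them ended was Lama5 in inflamed against normal mucosa. With the fixed replicate block, 6563 genes were called in adenocarcinoma against normal mucosa, 4754 in inflamed against normal mucosa and 1183 in adenocarcinoma against inflamed mucosa, against 7133, 5322 and 1420 without it. The random replicate block gave 7354, 5504 and 1503, and the paired fit of the 4 numbered pairs 1907. The random block, which also joins normal arrays to others of their number, added Lama1 in inflamed against normal mucosa. Its correlation within a replicate number was 0.031. The paired fit added Lama3 in adenocarcinoma against inflamed mucosa. Neither fit changed another laminin call.

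Leaving out 1 array gave 3524 to 5786 genes called in inflamed against normal mucosa, lowest without inflamed mucosa 2, with 0 to 2 laminins lower: Lamb3 without inflamed mucosa 1 or normal mucosa 4, and Lama3 and Lamb3 without normal mucosa 6. In adenocarcinoma against inflamed mucosa it gave 775 to 1652 genes, with 775 without inflamed mucosa 2 and 857 without inflamed mucosa 4. The Lama3 difference between adenocarcinoma and normal mucosa ran from -0.056 without normal mucosa 6 to 0.40 without normal mucosa 2. That of Lama4 between adenocarcinoma and inflamed mucosa ran from -0.14 without adenocarcinoma 4 to 0.063 without adenocarcinoma 1, was 0.043 without inflamed mucosa 2 and was 0.0105 with array weights. Array weights also raised the genes called in that comparison to 2296 and the laminins to 6, adding Lama3, Lamb1 and Lamc1.

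2 alternatives were chosen after seeing the data. Without the 3 arrays highest in Krt5, 4471 genes were called in adenocarcinoma against normal mucosa, with 8 laminins higher, and 5 were higher in inflamed against normal mucosa. With each array centred on the median of all 19938 genes in place of all clusters, 11103 genes were called in adenocarcinoma against normal mucosa (2491 higher, 8612 lower) and 11385 in inflamed against normal mucosa (1875 higher, 9510 lower), where the laminins were 5 higher and 2 lower, Lama3 and Lamb3. The main splits were 3266 higher with 3867 lower and 2730 higher with 2592 lower. The cause of these shifts was not tested. Lama2 in normal mucosa 4 and Lama4 in normal mucosa 1 were near the floor of the array, so the folds of both genes over normal mucosa may be understated.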
